A study of Homo sapiens with 15 samples.

Results

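Repeated and single low-dose exposure to fine particulate matter (PM2.5) were compared as a difference of 2 responses of BEAS-2B cells. The first response was that of cells given 1 µg/cm2 of PM2.5 daily and collected on day 7, relative to their vehicle controls (Control_7d and PM_7d_1dose). The second was that of cells given 1 µg/cm2 once and collected after 24 h, relative to their own controls (Control_24h and PM_24h_1dose). A positive difference means that the daily response of a gene was above its 24-h response on the log2 scale, and a negative difference that it was below. These 4 groups held 12 of the 15 RNA-Seq libraries of the series, 3 per group, and 17288 of the 58219 genes counted passed the filter on low counts.

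BEAS-2B is 1 established line of human bronchial epithelial cells immortalised with viral genes, and all 4 groups were cultured without serum on collagen-coated plates. The particles were water extracts of filters from winter air in Beijing. Neither protocol shared a library with the other, and the last number in a sample's name marked the experimental batch, called experiment here. The labels give daily dosing over 7 days, while the study's methods give 1 dose fewer before collection on day 7. Daily cultures were also plated at a lower density, stayed in culture longer and were washed between doses, so the number of exposures cannot be told apart from culture time, density and washing.

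PM2.5 from combustion carries polyaromatic hydrocarbons, which bind the aryl hydrocarbon receptor (AhR), a ligand-activated transcription factor. AhR switches on enzymes that oxidise these compounds, together with its own repressor, so that a pathway of this kind can be damped as exposure goes on. Particles also cause oxidative stress, which frees the transcription factor NRF2 to induce NAD(P)H, glutathione and iron-handling genes. Basal cells of the airway epithelium are marked by keratins and TP63.

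The letters that AhR and some of the other factors named below recognise were looked for in RefSeq promoters (build GRCh38.p14, 250 bases before to 50 bases after each gene's start, both strands). Windows of 30 bases are shown for genes on which the results turn, 5′ to 3′ on the gene's strand and with the letters found in capitals. The AhR core GCGTG was held by 36.5% of 35116 promoters, so its presence alone marks little. It lay 57 bases before the start of CYP1A1 and 30 bases before a start of AHRR, the gene of the AhR repressor. A carbohydrate response element, spelled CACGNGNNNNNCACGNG and bound by MondoA, was held by 0.057% of promoters, among them that of TXNIP. The AP-1 motif bound by JUN and FOS proteins is TGACTCA or TGAGTCA. It was looked for as TGANTCA, with any middle base, which 7.71% of promoters held. The promoter of CXCL8 held TGACTCA, while that of ANKRD1 held TGATTCA, whose middle base is not that of the motif. TGANTCA was not found in the promoter windows of IL6 and JUN, nor the carbohydrate element in that of ARRDC4.
CYP1A1, chr15:74725569-74725598, minus strand: tccagggaaggagGCGTGgccacacgtaca
AHRR, chr5:321671-321700, plus strand: gggcgggcggctcGCGTGccggggtggggc
TXNIP, chr1:145996645-145996674, minus strand: ggatgtgCACGAGGGCAGCACGAGcctccg
CXCL8, chr4:73740420-73740449, plus strand: taggaagtgtgaTGACTCAggtttgccctg
ANKRD1, chr10:90921265-90921294, minus strand: cacatttcttccTGATTCAcatattcagca

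The 12 libraries held 21540120 to 34724765 counted reads, and mitochondrially encoded genes took 2.37% to 4.4% of them. The cells carried the 12 airway epithelial markers looked for, including KRT5 and EPCAM, and none of 6 endothelial markers passed the filter. All 13 fibroblast and mesenchymal markers passed it too, none of them with a called difference (median -0.12). Of 8 immune markers CD14 and ITGAM passed, and neither was called. Of 8 markers of differentiated airway cells 1 passed (DNAH5), so secretory and ciliated markers were largely absent.

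Experiment 2 of the 24-h protocol stood apart from the other experiments. Across the 17288 genes, its treated-to-control ratios correlated at Pearson r of 0.00 and -0.08 with those of the other 24-h experiments, which correlated at 0.40 with each other. With the daily experiments it correlated at 0.15 to 0.23, while the daily experiments correlated at 0.43 to 0.50 among themselves. These correlations are across genes and carry no test. Counts of library pairs within a group were also compared by chi-square per degree of freedom. It was 76.8 to 182 for pairs with 24-h experiment 2. Among treated daily libraries it was 25.6 and 19.9 for pairs with experiment 3 and 4.71 for the other pair. Leaving out 24-h experiment 2 raised the calls from 115 to 904 higher and from 232 to 1278 lower, with 339 of the original 347 among them. Every called gene named below was called without it too, with a difference within 1.5 times the one printed. The same libraries chose these genes, and calls became more frequent among all genes tested, so nothing is read from this. With any other experiment left out, at most 3 genes were called in the difference. Values without 24-h experiment 2 are given where a call changed and for a few other genes.

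**Figure D1:**
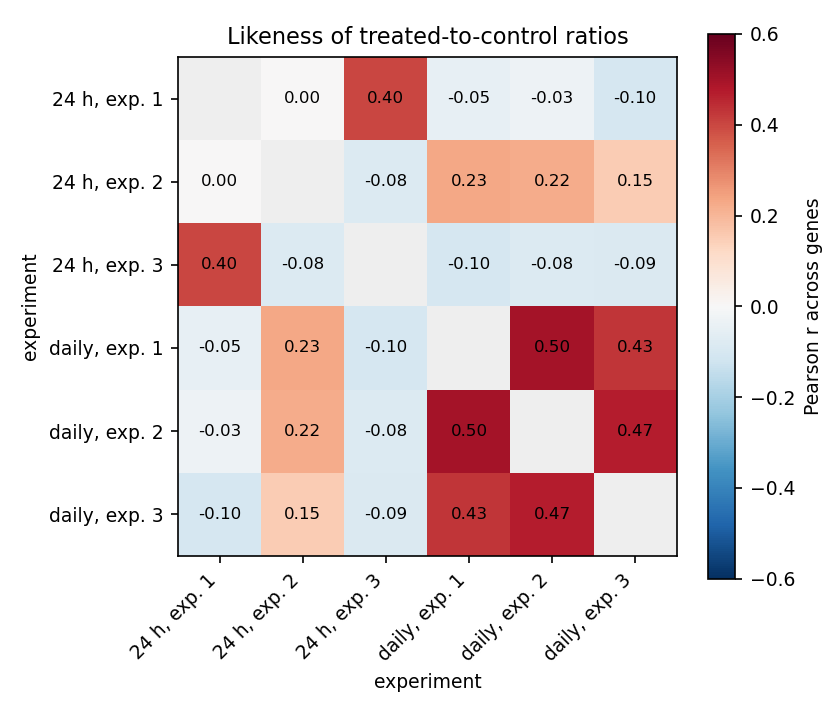
Heat map of Pearson r, across 17288 genes, between the log2 treated-to-control ratios of the 6 experiments (rows and columns; color from blue, negative, to red, positive). The 24-h experiments 1 and 3 share a red cell (0.40), the 3 daily experiments form a red block (0.43 to 0.50), and 24-h experiment 2 is closer to the daily experiments (0.15 to 0.23) than to its own protocol.

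A gene was called when edgeR's quasi-likelihood test, with each experiment as a block, gave a Benjamini-Hochberg adjusted p under 0.05 and the log2 value was at least 0.6 in size. The difference of responses was called higher for 115 genes (0.665% of genes tested) and lower for 232 genes (1.34%), together 347 genes (2.01%). The single exposure alone gave 58 higher and 60 lower genes (0.335% and 0.347%), and the daily exposure 347 higher and 571 lower genes (2.01% and 3.3%). In 342 of the 347 genes the 3 daily ratios did not overlap the 3 ratios at 24 h (28.2% of all genes tested), a count nearly fixed by choosing genes on the same ratios and from which nothing is read. Adjusted p-values lay between 0.03 and 0.05 for 344 of the 347 genes. With any other experiment left out in place of 24-h experiment 2, at most 3 genes passed the same rule.

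The 347 genes were mostly those in which the responses pointed in opposite directions. Signs were opposite in 293 of them (84.4%), against 50.7% of all genes, a share that choosing genes on their difference favors and from which nothing is read. The daily response was itself called in 189 of them without the 24-h response, the 24-h response alone in 26, both in 2 and neither in 130. Across all genes tested the responses correlated at Pearson r of 0.0047, and each had a median near 0 (-0.0023 at 24 h and 0.0066 after daily exposure, log2).

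**Figure D2:**
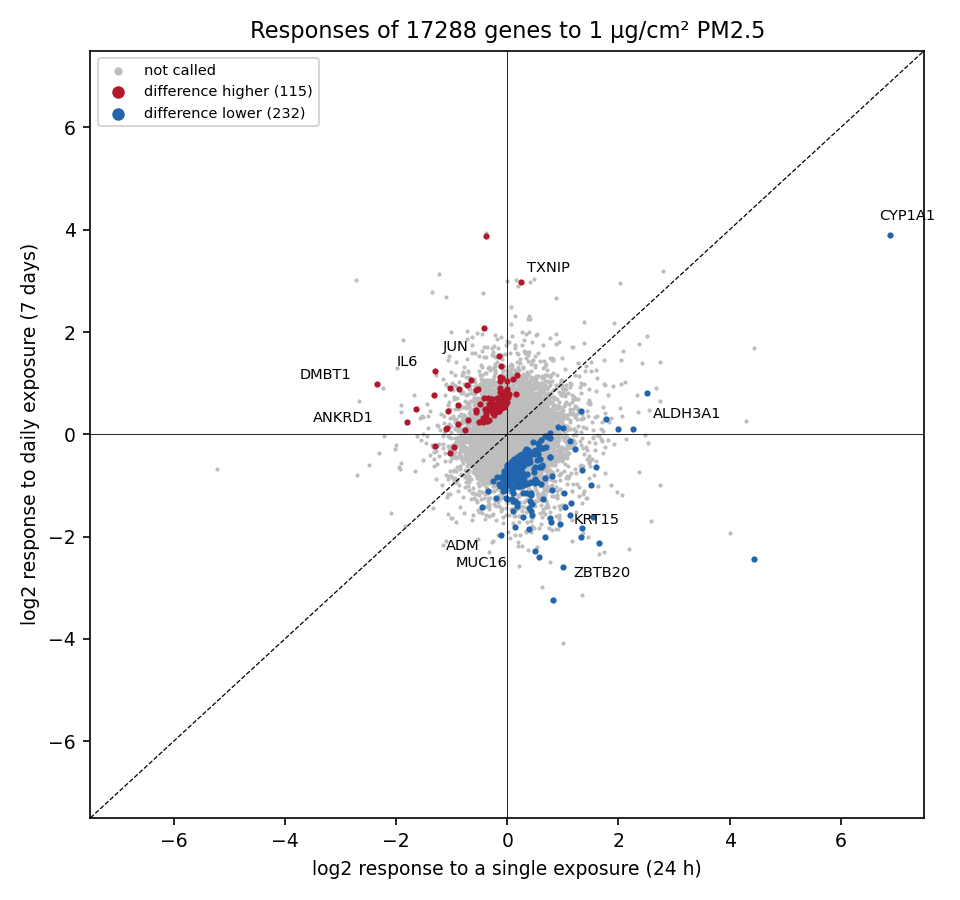
Scatter plot of the log2 response to a single exposure (x axis) against that to daily exposure (y axis) for 17288 genes; red points are the 115 genes and blue points the 232 genes called higher or lower in the difference, and the dashed line marks equal responses. CYP1A1 lies far to the right and below the line, while red points gather at upper left and blue points at lower right of the origin.

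Of 11 AhR targets tested, 8 rose after the single exposure, 6 rose after daily exposure, and 4 were called lower in the difference. CYP1A1, the main AhR-induced monooxygenase, stood at 1.31, 0.571 and 1.47 CPM (reads scaled to library size) in the 24-h controls of experiments 1 to 3 and at 155, 89.9 and 154 after the single exposure. In the daily protocol it stood at 2.92, 2.8 and 0.952 CPM in controls and at 32.7, 30.9 and 32.5 after exposure. All treated libraries were above all controls, and every daily treated library was below every treated library at 24 h. The induction was 118-fold at 24 h and 14.9-fold after daily exposure, a log2 difference of -2.99 ± 0.38 (SE, 3 experiments per protocol, adjusted p = 0.0346 by edgeR) and of -2.91 without 24-h experiment 2.

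ALDH3A1, an aldehyde dehydrogenase induced through AhR, rose from 1.5, 7 and 1.29 to 9.49, 31.9 and 9.62 CPM at 24 h. After daily exposure it rose from 2.54, 2.34 and 2.28 to 4.69, 4.48 and 3.47 CPM, and its difference was -1.71 ± 0.23 (edgeR adjusted p = 0.0363). The 24-h experiment 2 had a higher level of this gene than the other experiments in both of its libraries. SLC7A5, which carries large neutral amino acids and is also an ATF4 target, rose 2.52-fold at 24 h. Its daily response of 0.46 ± 0.10 (log2) passed the adjusted p (0.0155, edgeR) but not the fold threshold. Its difference was -0.88 ± 0.14 (edgeR adjusted p = 0.0369).

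AHRR, CYP1B1 and TIPARP rose in both protocols, with differences that did not pass both thresholds. AHRR, the repressor whose promoter is shown above, rose 5.36-fold at 24 h and 2.64-fold after daily exposure (difference -1.02 ± 0.24, 95% interval -1.55 to -0.49, edgeR adjusted p = 0.052). CYP1B1, a related monooxygenase, rose 4.11-fold and 2.74-fold, and its difference of -0.58 ± 0.13 missed the fold threshold (edgeR adjusted p = 0.0471). TIPARP, an ADP-ribosyltransferase that restrains AhR, rose 2.6-fold and 1.98-fold (difference -0.40 ± 0.13, 95% interval -0.67 to -0.12). Without 24-h experiment 2, AHRR (-0.99) and CYP1B1 (-0.62) passed both thresholds and TIPARP did not. Of the 4 other members, ALDH1A3 was called higher at 24 h alone and SERPINB2 after daily exposure alone, and neither EREG (responses of -0.39 and -0.01) nor NFE2L2 (0.19 and 0.45) was called in either. The AhR list held 0 genes called higher in the difference and a median of -0.58, against a median of -0.00043 for all genes, and NQO1, described below, was the last of its 4 lower calls. Among the 7 components of the receptor complex (AHR, ARNT and chaperones) 0 were called, with a median of 0.17.

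Of 26 NRF2 targets tested, 5 rose after the single exposure, while after daily exposure 0 rose and 1 fell. NQO1, a quinone reductase controlled by both AhR and NRF2, stood at 220.5 ± 18.2 CPM in 24-h controls and 416 ± 44.3 after the single exposure (mean ± SD, n = 3). In the daily protocol it stood at 68.6 ± 4.88 CPM in controls and 75.4 ± 4.16 after exposure (n = 3), with overlapping libraries. The level in the daily controls was below every 24-h control, and the difference was -0.78 ± 0.12 (edgeR adjusted p = 0.0363).

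FTL, the ferritin light chain, rose from 1080, 2012 and 1306 to 2245, 4075 and 2504 CPM at 24 h, and in the daily protocol held 851, 783 and 814 CPM in controls and 1065, 988 and 670.4 after exposure. Reads of FTL can also match its many processed copies, so its level is uncertain. PIR, an iron-binding nuclear protein, and TRIM16L, a relative of TRIM16, rose at 24 h by 0.74 ± 0.11 and 1.14 ± 0.15 on the log2 scale, with differences of -0.78 ± 0.16 and -1.27 ± 0.22. TRIM16L is annotated as a transcribed pseudogene, and whether some of its reads come from TRIM16 was not tested. TKT, the transketolase of the pentose phosphate pathway, differed in kind: its 24-h response was not called (0.35 ± 0.14), and after daily exposure it fell from 855, 806 and 867 to 608, 564 and 352 CPM (difference -1.12 ± 0.19). In the difference 0 NRF2 targets were called higher and 5 lower, and 2 of 26 had a positive value (median -0.34). The median response of the list was 0.35 at 24 h and 0.07 after daily exposure.

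Unlike NQO1 and FTL, the NRF2 targets HMOX1, GCLM and TXNRD1 were not called in either response or in the difference. HMOX1, heme oxygenase 1, had responses of 0.51 ± 0.10 at 24 h and 0.17 ± 0.11 after daily exposure. Its 24-h response passed the adjusted p (0.0487, edgeR) but not the fold threshold. GCLM, a subunit of the glutathione-making ligase, had 0.43 ± 0.11 and 0.08 ± 0.11, and TXNRD1, thioredoxin reductase 1, had 0.70 ± 0.18 and 0.09 ± 0.17. The 24-h experiment 2 held no induction of TXNRD1 (363, 282 and 366 CPM in controls, 732, 277 and 778 after exposure). Without that experiment the difference of TXNRD1 was -0.96 and passed both thresholds, and the NRF2 list held 8 lower calls in place of 5, where 7.24% of all genes were called lower.

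**Figure D3:**
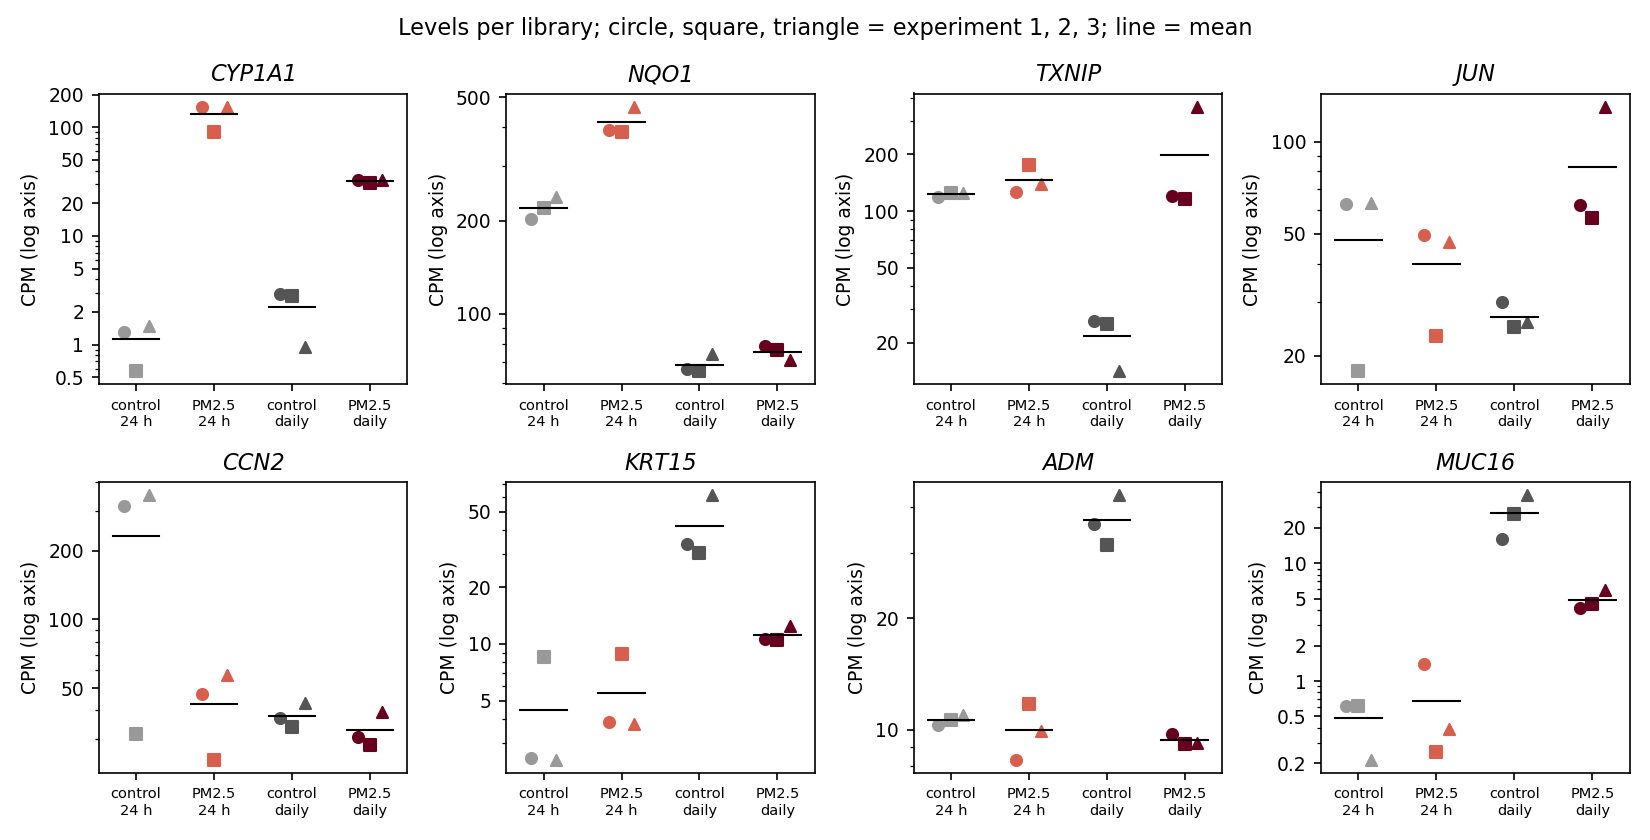
Levels of 8 genes in CPM (reads scaled to library size, log axes) in the 12 libraries, by group; circles, squares and triangles are experiments 1, 2 and 3 of each protocol, and lines are group means. CYP1A1 rises in both protocols, NQO1 at 24 h only by the calls, and the daily controls are the lowest group for TXNIP and the highest for KRT15, ADM and MUC16.

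Among genes called higher with a mean above 10 CPM, TXNIP held the largest difference. TXNIP binds thioredoxin and curbs glucose uptake, and it is the standard target of MondoA. At 24 h it held 119, 125 and 124 CPM in controls and 126, 176 and 139 after exposure, a response that was not called (0.25 ± 0.36). In the daily protocol it stood at 26, 25.1 and 14.1 CPM in controls and 120.3, 115 and 359 after exposure, so the daily controls lay far below all other libraries. The difference was 2.73 ± 0.53 (edgeR adjusted p = 0.0392), and 2.87 without 24-h experiment 2. Daily experiment 3 was the most extreme, and leaving it out lowered the value to 1.96. Its treated library was also the one farthest from its control for ARRDC4, JUN and TKT.

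ARRDC4, an arrestin-like relative of TXNIP that MondoA also controls, had the same order of levels. It stood at 5.16, 5.47 and 4.44 CPM in daily controls and 14.2, 15.2 and 35.7 after exposure, and rose 3.98-fold, while its difference of 1.6 ± 0.37 did not pass (edgeR adjusted p = 0.051), while without 24-h experiment 2 it was 1.79 and passed. SLC2A1, the glucose transporter GLUT1, went the other way: it stood at 213, 209 and 246 CPM in daily controls and fell to 148, 141 and 124 after exposure (difference -0.74 ± 0.13, edgeR adjusted p = 0.0369). Of 11 MondoA and glucose uptake genes 1 was called higher and 1 lower. Of 17 glycolysis genes 0 were called in the difference (median -0.12), and 3 fell after daily exposure, where 3.3% of all genes did.

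Immediate early genes and feedback genes of the ERK pathway lay mostly on the higher side. JUN, an AP-1 subunit, held 62.6, 17.9 and 62.9 CPM in 24-h controls and 49.6, 23.2 and 47.2 after the single exposure. Daily exposure raised it from 30.0, 24.8 and 25.9 to 62.2, 56.5 and 130.0 CPM, with no overlap (difference 1.68 ± 0.32, edgeR adjusted p = 0.0376). IER2, another immediate early gene, also rose after daily exposure (0.66 ± 0.10, difference 0.80 ± 0.14). Genes on the other strand overlap 30.8% of the IER2 exon bases and 20.7% of those of IL6.

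The ERK feedback genes DUSP6 and SPRY4 differed from JUN in that neither of their responses was called by itself. DUSP6, a phosphatase that switches off ERK, held 23.4, 2.1 and 27.9 CPM in 24-h controls and 5.97, 2.51 and 6.16 after exposure, against 6.31, 6.18 and 5.27 and 7.42, 7.23 and 10.5 in the daily protocol. In 24-h experiment 2 control and treated library held similar levels, below those of all other libraries, its ratios overlapped between the protocols, and the difference was 2.13 ± 0.46 (2.57 without that experiment). Part of the DUSP6 exons (40.5% of bases) overlaps a gene on the other strand, and the strand setting of the counting is not given in the sources used here. SPRY4, an inhibitor of receptor tyrosine kinase signaling, had the same pattern (18.4, 1.67 and 17.8 CPM in 24-h controls and 7.83, 2 and 6.66 after exposure) and a difference of 1.51 ± 0.30. SPRY2, a relative of SPRY4, fell at 24 h (-0.86 ± 0.10), and its difference of 0.58 ± 0.14 was not called (edgeR adjusted p = 0.0531), while without 24-h experiment 2 it was 0.69 and passed. The single lower call in the difference on the list was DUSP10, a phosphatase of JNK and p38, with -1.22 ± 0.18. Of 24 genes tested 4 were called higher and 1 lower, 19 differences were positive and the median was 0.73. Without 24-h experiment 2 the counts were 15 higher and 1 lower of 25, where 5.12% and 7.24% of all genes were called.

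**Figure D4:**
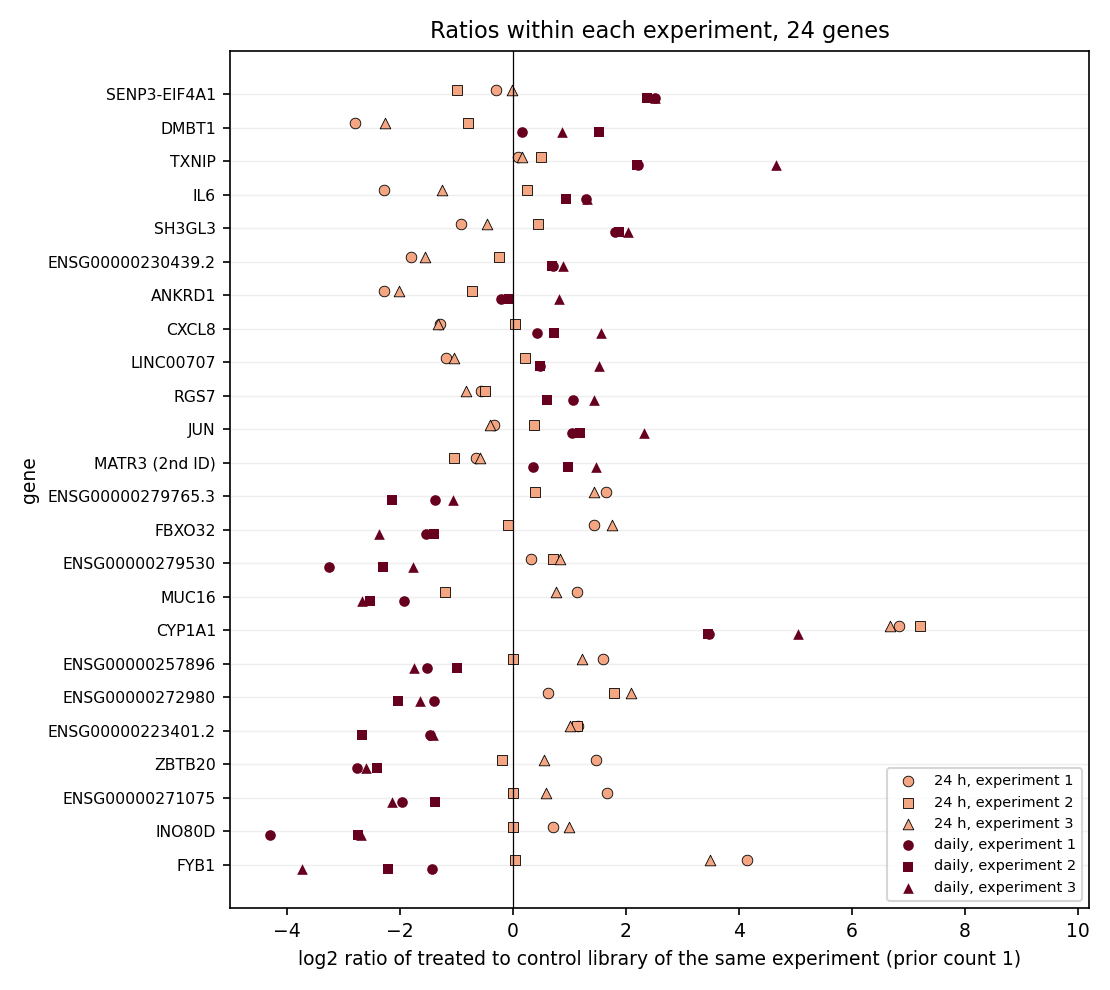
Log2 ratios of treated to control library within each experiment (x axis) for the 12 genes with the largest positive and the 12 with the largest negative difference (rows); light symbols are 24-h experiments, dark symbols daily experiments, and shapes are experiments 1 to 3. The dark and light symbols are apart in every row, as the choice of the genes requires, and the light squares of 24-h experiment 2 often sit between the other light symbols and the dark ones.

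The inflammatory mediators IL6 and CXCL8 were called higher, and both were expressed at low levels. IL6, the acute-phase cytokine, held 2.66, 0.714 and 2.26 CPM in 24-h controls and 0.518, 0.852 and 0.926 after the single exposure. In daily cultures it held 0.5, 0.423 and 0.476 CPM in controls and 1.28, 0.849 and 1.23 after exposure, so every treated library was above the controls. The difference of IL6 was 2.54 ± 0.56 (edgeR adjusted p = 0.0475). Neither of its responses was called by itself (edgeR adjusted p = 0.21 at 24 h and 0.0656 after daily exposure). CXCL8, the neutrophil chemokine whose promoter holds the AP-1 motif shown above, rose from 3.73, 3.03 and 2.03 to 5.05, 5.03 and 6.02 CPM after daily exposure. At 24 h it held 6.96, 1.86 and 7.87 CPM in controls and 2.83, 1.91 and 3.1 after exposure, and its difference was 1.92 ± 0.38 (edgeR adjusted p = 0.0392). In 24-h experiment 2 neither gene was lower in the treated library than in its control.

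Of 18 cytokine genes tested 2 were called higher and 0 lower (median 0.31), where 0.665% and 1.34% of all genes were. Without 24-h experiment 2 the counts were 6 and 0 (median 0.68), where 5.12% of all genes were called higher and 7.24% lower. IL1B and IL24, which rose in both protocols, had differences of -0.59 ± 0.28 and -0.77 ± 0.37 with 95% intervals of -1.22 to 0.03 and -1.6 to 0.06, neither called. Of 24 interferon-stimulated genes IFI44 and OASL were called higher (0.70 ± 0.12 and 1.22 ± 0.24), while 8 of the list had a positive difference and its median was -0.17. Without 24-h experiment 2 the list held 3 higher and 4 lower calls, against the same 5.12% and 7.24% of all genes. IFI44 and OASL both fell at 24 h, IFI44 from 24.4, 18.3 and 24.71 to 13, 9.12 and 12.7 CPM, and neither was called after daily exposure.

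Targets of YAP and TEAD, the effectors of the Hippo pathway that read cell density and tension, differed between the protocols in their controls as well. ANKRD1, a nuclear ankyrin-repeat protein, fell at 24 h from 21.4, 5.67 and 22.8 to 4.35, 3.41 and 5.59 CPM. In the daily protocol it held 2.77, 1.76 and 2.79 CPM in controls and 2.4, 1.67 and 4.92 after exposure, levels that overlapped (difference 2.03 ± 0.40, edgeR adjusted p = 0.0392). CCN1, a matricellular protein, had a difference of 0.76 ± 0.14. CCN2, its relative, fell at 24 h from 316, 31.6 and 350.2 to 47, 24.3 and 57 CPM, while daily cultures held 37, 33.8 and 42.9 in controls and 30.6, 28.3 and 39.4 after exposure. The 24-h experiment 2 control was thus at the level of the daily controls for CCN2, and the difference of 1.79 ± 0.49 did not pass (edgeR adjusted p = 0.0748), while without that experiment it was 2.47 and passed. AMOT, an angiomotin that binds YAP, was lower (-1.05 ± 0.22). Of 18 targets 2 were called higher and 1 lower (median -0.04). What plating density and time in culture contribute was not tested.

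Of 20 basal epithelial and keratin genes, 6 were called lower in the difference and 0 higher. KRT15, a keratin of basal cells, held 2.5, 8.52 and 2.44 CPM in 24-h controls and 3.87, 8.87 and 3.78 after the single exposure. In daily cultures its controls were higher, at 34, 30.3 and 61.2 CPM, and exposed cells held 10.6, 10.4 and 12.5 (difference -2.24 ± 0.24, edgeR adjusted p = 0.0186). TP63, the master regulator of basal cells, held 57.3, 56.4 and 66.2 CPM in daily controls and fell to 29.3, 31.5 and 29.8 after exposure, close to the 24-h controls at 28.3, 24.1 and 25.4. The difference of TP63 was -0.94 ± 0.17 (edgeR adjusted p = 0.0369).

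NGFR, the nerve growth factor receptor that marks airway basal cells, S100A2, a calcium-binding protein, TNS1, a focal adhesion protein, and LAMA3, a laminin chain of the basement membrane, were lower by -1.62 ± 0.26, -0.95 ± 0.17, -1.25 ± 0.19 and -0.76 ± 0.15. Of the NGFR exon bases 27.1% are shared with other genes. In each of these 4 genes the daily response was called lower and the 24-h response was not called. KRT5, the keratin most used to mark basal cells, fell after daily exposure from 877, 822 and 1084 to 471, 426 and 566 CPM, and its difference of -0.53 ± 0.10 passed the adjusted p (0.0392, edgeR) but not the fold threshold. The median difference of the list was -0.51, and 12 members fell after daily exposure while 0 were called at 24 h. Of all genes tested, 3.3% were called lower after daily exposure. At 24 h only 0.335% were called higher and 0.347% lower, so 0 calls in a list of this size are near that share. Positive differences were held by 5 members, none of them called, and among these KRT6B, a keratin of stressed epithelium, rose after daily exposure (1.48, log2 response, difference 1.57 with an edgeR adjusted p of 0.222), while KRT14 had 0.63 and KRT16 0.68. Without 24-h experiment 2 the list held 2 higher and 9 lower calls, where 5.12% and 7.24% of all genes were called. Among the airway epithelial markers KRT19 (-1.19 ± 0.17), CDH3 (-0.70 ± 0.15) and ELF3 (-2.23 ± 0.48) were lower as well as TP63. ELF3, an epithelial transcription factor, held 4.37, 14.9 and 4.56 CPM in 24-h controls and 20.6, 17.6 and 24.2 after exposure. Experiment 2 was again the library pair with a high control and little change. Daily cultures held 51.3, 55.7 and 60.8 CPM of ELF3 in controls and 43.5, 39.9 and 26.2 after exposure. Neither response of ELF3 was called by itself (1.59 ± 0.36 at 24 h and -0.64 ± 0.32 after daily exposure, log2).

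**Figure D5:**
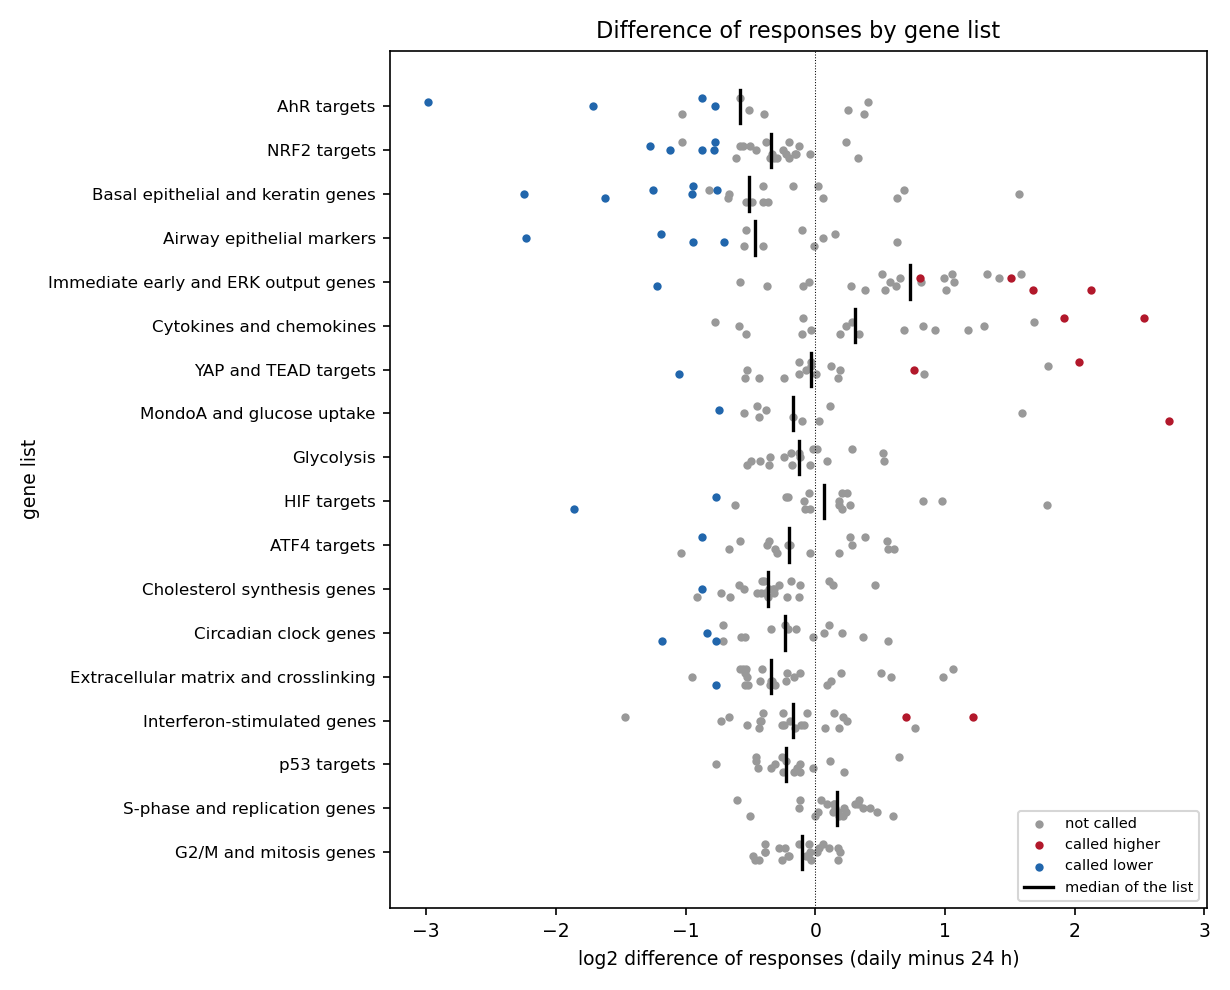
Log2 difference of responses (x axis) of the tested members of 18 gene lists (rows); grey, red and blue points are members not called, called higher and called lower, and black bars are list medians. The immediate early list has the median farthest to the right (0.73) and the AhR list the one farthest to the left (-0.58).

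Other genes with a lower difference were higher in daily controls than in 24-h controls and came down with daily exposure. ADM, the vasodilator peptide adrenomedullin and a HIF target, held 10.3, 10.6 and 10.9 CPM in 24-h controls and 8.32, 11.8 and 9.9 after the single exposure. In daily controls it held 36, 31.6 and 43 CPM and after daily exposure 9.75, 9.16 and 9.2, so all 9 libraries outside the daily controls lay below 12 CPM (difference -1.86 ± 0.17, edgeR adjusted p = 0.0117). BHLHE40, the other HIF target called lower and a clock repressor, had -0.77 ± 0.15, and the list of 18 HIF targets had a median of 0.07. MUC16, a membrane mucin of differentiated airway epithelium, held 0.611, 0.619 and 0.215 CPM in 24-h controls, 15.9, 26.1 and 37.8 in daily controls and 4.17, 4.51 and 5.93 after daily exposure (difference -2.97 ± 0.48, edgeR adjusted p = 0.0369).

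ZBTB20, a transcriptional repressor, fell from 5.08, 7.88 and 11.1 to 0.722, 1.46 and 1.8 CPM after daily exposure, and its difference was -3.60 ± 0.35 (edgeR adjusted p = 0.0117). Of the ZBTB20 exon bases 49.7% are shared with other genes. FBXO32, a ubiquitin ligase subunit known for muscle atrophy, held 3.79, 19 and 3.23 CPM in 24-h controls, 38.9, 36 and 47.3 in daily controls and 13.4, 13.7 and 9.14 after daily exposure (difference -2.71 ± 0.43). GPNMB, a glycoprotein of lysosomes and melanosomes, fell from 57.2, 52.7 and 70.9 to 17.5, 18.2 and 15.2 CPM (-1.95 ± 0.26), and NR1D1 and DBP, output genes of the circadian clock, had -1.18 ± 0.23 and -0.83 ± 0.17. Of 17 clock genes 0 were called higher and 3 lower, and the hours of collection are not given in the sources used here.

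Among the 12 largest positive differences, DMBT1, a secreted scavenger protein of mucosa, held 9.77, 0.809 and 9.01 CPM in 24-h controls and 1.38, 0.451 and 1.85 after exposure, with 0.231, 0.13 and 0.19 and 0.263, 0.439 and 0.378 in the daily protocol (difference 3.32 ± 0.59). RGS7, a regulator of G-protein signaling, rose from 1.19, 1.4 and 1.4 to 2.53, 2.14 and 3.85 CPM after daily exposure (1.71 ± 0.30), and SH3GL3, an endophilin, was called at under 1 CPM (2.5 ± 0.56). LINC00707, a long non-coding RNA, had 1.75 ± 0.38 and the unnamed gene ENSG00000230439.2 had 2.09 ± 0.34, both with 24-h experiment 2 at a far lower control level than experiments 1 and 3. SENP3-EIF4A1 is a read-through transcript that shares 88.0% of its exon bases with other genes, and it was counted 0, 0 and 1 times in daily controls and 5, 5 and 11 times after exposure. The second identifier of MATR3 (ENSG00000280987.4) shares 91.3%, so neither can be assigned to that gene alone.

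The largest negative differences held 8 further genes near the limit of detection. FYB1, an adaptor protein of blood cells, was counted 0, 1 and 0 times in 24-h controls, 17, 1 and 10 times after the single exposure, 27, 33 and 40 times in daily controls and 11, 7 and 2 times after daily exposure. INO80D, a subunit of the INO80 chromatin remodeler, held at most 1.42 CPM in any library (difference -4.06 ± 0.70), with no count in either library of 24-h experiment 2. The 6 others are unnamed genes, pseudogenes or provisional loci (ENSG00000271075, ENSG00000223401.2, ENSG00000272980, ENSG00000257896, ENSG00000279530 and ENSG00000279765.3), with differences of -3.79 to -2.71. Their levels did not exceed 2.13 CPM in any library. ENSG00000272980 shares 80.0% of its exon bases with other genes, ENSG00000279765.3 shares 41.2% and ENSG00000223401.2 shares 27.8%.

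Some lists held few or no calls. There were 0 calls of 17 p53 targets (median -0.22), 0 of 24 S-phase genes (0.16), 0 of 24 genes of G2/M and mitosis (-0.10), 0 of 7 TET and DNMT enzymes (-0.31) and 0 of 13 mitochondrially encoded genes (-0.07). At an unadjusted p under 0.05, counts in the same lists were 4, 10, 7, 2 and 3, against 23.5% of all genes. Cholesterol synthesis genes had 3 positive differences of 24 and a median of -0.36, and 6 of the 24 fell after daily exposure while 0 were called at 24 h. Of all genes tested, 3.3% were called lower after daily exposure, and 0.335% higher and 0.347% lower at 24 h. Of 26 matrix genes TNC, a matrix glycoprotein, was called lower (-0.76 ± 0.16), and of 18 ATF4 targets SLC7A5 was.

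List counts depended on 24-h experiment 2. Without it, where 5.12% of all genes were called higher and 7.24% lower, matrix genes held 4 higher and 7 lower calls, cholesterol synthesis genes 1 and 6, and ATF4 targets 2 and 3. Clock genes held 0 higher and 7 lower calls, genes of G2/M and mitosis 0 and 4, p53 targets 1 and 2, and S-phase genes 1 and 0. HIF targets held 3 and 2, YAP and TEAD targets 4 and 2, MondoA and glucose uptake genes 2 and 2, and glycolysis genes 2 and 0. The TET and DNMT enzymes then held 1 lower call, the mitochondrially encoded genes 2, and the fibroblast and the immune markers 1 each. Of the AhR targets 6 were then called lower, and of the receptor components 1 was called higher.

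Genes the study had named for each protocol were followed as well. These were picked from the same libraries and are not independent evidence of any direction. Of the 37 tested genes named for single exposure 1 was called higher and 8 lower, and of 40 named for daily exposure 7 were higher and 13 lower. Without 24-h experiment 2 these counts were 7 and 14 of 38, and 13 and 20 of 40, where 5.12% and 7.24% of all genes were called.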

How the data were processed

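RNA of BEAS-2B cells was sequenced by the authors as poly-A selected, single-end libraries, aligned with STAR to GRCh38 and counted per gene with featureCounts. The deposited values are whole-number counts per gene, not normalized, and strand setting and annotation release are not given in the sources used here. The labels name hg19, but gene positions in the counts table are those of GRCh38. The table held 58219 genes, 57437 of which were paired with a name.

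The counts of 12 libraries were analysed with edgeR 4.0.16 in R 4.3.3 (TMM normalization, filterByExpr by condition, quasi-likelihood test in its earlier mode) with 6 blocks, 1 per experiment and protocol, and a treatment term for each protocol. P-values were adjusted by Benjamini-Hochberg over 17288 genes. Levels are CPM, counts scaled to library size with TMM factors, and ratios used a prior count of 1. The fit had 4 residual and 6.06 prior degrees of freedom, and intervals cover 95%. The script was tested on simulated data. Depth was 21540120 to 34724765 counts per library, so 3 counts corresponded to 0.0864 to 0.139 CPM. P-values measure how treated-to-control ratios vary between experiments of a protocol, moderated across genes, and this spread may be technical in part.

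The block is the experiment number within a protocol: the series record says that this number marks the batch. Control and treated library of the same experiment deviated from their group means with r of 0.115 to 0.666 (6 pairs, across genes). Pairs from different experiments of a protocol had r of -0.669 to 0.409 (12 pairs), so the ranges overlap. The treated library of 24-h experiment 3 followed the control of experiment 1 (0.409) more than its own control (0.342). In the daily protocol, pairs of the same experiment had r of 0.115 to 0.171 and other pairs -0.129 to -0.0368. Deviations from a group mean cancel within the group. A positive r for pairs of the same experiment therefore pushes r of the other pairs down, so the ranges are not independent. No library was counted as a duplicate of another.

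Genes named are the 12 with the largest positive and the 12 with the largest negative difference among called genes whose ratios did not overlap between protocols, and members of gene lists. The comparison, the lists and the alternatives were chosen with earlier results of these data known. Alternatives tried were RLE and upper-quartile normalization, 2 other filters, all 15 libraries, 2 other block designs and edgeR's current and robust modes. DESeq2 1.42.0 and 2 other thresholds were also tried, and each experiment was left out in turn. A further alternative let the treatment effect differ between 2 ranges of library label numbers. Libraries given 30 µg/cm2 entered only the alternative with all 15 libraries. Promoter sequences are RefSeq's (GRCh38.p14), and the 10 genes searched were matched by symbol. Some genes that the rule for named genes allows are not reported here.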

Additional observations from a re-analysis of the deposited data

Results flagged for a closer look

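The daily and the 24-h response differed by a test of the difference itself (edgeR, adjusted p under 0.05 and a log2 difference of at least 0.6) in 115 genes called higher and 232 called lower. Among the genes named, log2 differences were positive for SENP3-EIF4A1 (4.25), DMBT1 (3.32), TXNIP (2.73), IL6 (2.54), SH3GL3 (2.5), DUSP6 (2.13), ENSG00000230439.2 (2.09), ANKRD1 (2.03), CXCL8 (1.92), LINC00707 (1.75), RGS7 (1.71), JUN (1.68), the second MATR3 identifier ENSG00000280987.4 (1.68), SPRY4 (1.51), KCNAB3 (1.45), LINC00680 (1.24), OASL (1.22), TNFRSF12A (1.20), RPS6KL1 (0.88), IER2 (0.80), TMEM147-AS1 (0.77), CCN1 (0.76), CSTF3 (0.72) and IFI44 (0.70).

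They were most negative for FYB1 (-6.89), INO80D (-4.06), ENSG00000271075 (-3.79), ZBTB20 (-3.60), ENSG00000223401.2 (-3.33), ENSG00000272980 (-3.19), ENSG00000257896 (-3.18), CYP1A1 (-2.99), MUC16 (-2.97), ENSG00000279530 (-2.79), FBXO32 (-2.71), ENSG00000279765.3 (-2.71), KRT15 (-2.24), ELF3 (-2.23) and NPTX1 (-2.16). They were intermediate for GPNMB (-1.95), ADM (-1.86), ALDH3A1 (-1.71), NGFR (-1.62), VIPR1 (-1.52), TRIM16L (-1.27), TNS1 (-1.25), DUSP10 (-1.22), KRT19 (-1.19), NR1D1 (-1.18), TKT (-1.12), AMOT (-1.05), S100A2 (-0.95) and TP63 (-0.94). The smallest ones were those of ALDH6A1 (-0.90), FTL (-0.88), SLC7A5 (-0.88), SLC45A4 (-0.84), DBP (-0.83), PIR (-0.78), NQO1 (-0.78), BHLHE40 (-0.77), TNC (-0.76), LAMA3 (-0.76), SLC2A1 (-0.74), DIAPH2 (-0.72), CDH3 (-0.70) and GLUL (-0.65). The values of SENP3-EIF4A1 and FYB1 are fitted against groups with at most 1 count per library, depend on the prior count and are no bounds. The test of each difference compared 3 experiments of 1 protocol with 3 of the other, and number of exposures, time in culture, plating density and washing cannot be told apart in it.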

How the results depend on the processing

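The counts rest on all 6 experiments and on the block. Leaving out 1 experiment gave 0 to 904 higher and 0 to 1278 lower genes in the difference, 23 to 574 genes called at 24 h and 133 to 1343 after daily exposure, the high values being those without 24-h experiment 2. Without a replicate block there were 0 higher and 1 lower genes in the difference, 11 called at 24 h and 17 after daily exposure, and with a replicate block shared by both protocols 0, 0, 11 and 12. Another fit let the treatment effect differ between a lower and a higher range of library label numbers, and its counts were 0, 2, 13 and 461. The lower range held 24-h experiment 1 and daily experiments 2 and 3, and the higher range held the rest. In a test against a fold of 1.5 the counts were 0, 2, 11 and 10. With all 15 libraries they were 61 and 120 in the difference and 74 at 24 h, with no filter 429, 663 and 284, with DESeq2 209 and 410 in the difference, and by adjusted p alone 179 higher and 2813 after daily exposure. RLE, upper-quartile, robust and current-mode fits and the filter at 1 CPM kept every count within 1.5 times. Genes shared with the 347 numbered 341 with RLE, 331 with DESeq2, 178 with all 15 libraries, 343 with no filter and 339 without 24-h experiment 2. No alternative turned the sign of a named gene or of any of the 347 where tested, which choosing them on the same libraries favors. Deviations of same-numbered experiments of the 2 protocols correlated at r of -0.273 to 0.158. This range overlaps that of daily pairs of the same experiment (0.115 to 0.171), so it does not decide between the block designs. What makes 24-h experiment 2 differ was not tested. Depth limits genes under about 1 CPM, where 1 library can hold 0 counts.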

Other observations

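A set of 33 genes was called in both responses, 33 of 118 called at 24 h and 33 of 918 called after daily exposure, each in the same direction in both. These are responses that single and daily exposure had in common. Of all 17288 genes tested, 2.01% were called higher and 3.3% lower after daily exposure, and 0.335% and 0.347% at 24 h. LINC00886, a long non-coding RNA, rose from 2.2, 2.86 and 2.19 to 5.56, 7.97 and 5.95 CPM at 24 h and from 2.58, 2.54 and 2.16 to 6.3, 5.88 and 6.12 CPM after daily exposure. Its difference was -0.08 ± 0.20 with a 95% interval of -0.52 to 0.35. LOX, the enzyme that crosslinks collagen, fell from 99.8, 73.2 and 103 to 51.8, 46.7 and 53.8 CPM at 24 h and from 79.2, 72.5 and 79.2 to 48, 46.1 and 53.7 CPM after daily exposure, with a difference of 0.20 ± 0.12 and an interval of -0.06 to 0.47. The intervals do not show that the responses are equal.

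Other shared increases were those of ARTN, a GDNF family ligand (1.34 at 24 h and 0.99 after daily exposure, log2 response), ITGA11, a collagen-binding integrin subunit (1.90 and 0.95), and STC2, a secreted glycoprotein (0.67 and 0.63). SLITRK6, a neuronal transmembrane protein, fell in both (-1.83 and -1.80). Chosen after their values were seen, the Wnt antagonists DKK1 (-0.95 and -0.86) and SFRP1 (-0.77 and -0.70) and the transcription factor SOX9 (-0.92 and -0.71) fell in both as well. Of the 33 genes, CYP1A1 and ALDH3A1 were the ones also called in the difference.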
